A study of Mus musculus with 8 samples.

Results

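The endothelin system was examined in RNA-seq data of mouse aorta through its 7 genes, namely the ligands Edn1, Edn2 and Edn3, the receptors Ednra and Ednrb, and the converting enzymes Ece1 and Ece2. The members were chosen by gene symbol, and each was found among the 48607 assembled loci of the deposited table. Of several loci with a symbol, that with the highest summed count was taken. Of the 7 members, 5 had at least 1 FPKM (fragments scaled by library depth and by transcript length, so that genes can be compared) in at least 3 libraries and were tested, and Edn2 and Edn3 were not.

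The study asked how loss of the natriuretic peptide receptor C (NPRC, encoded by Npr3) affects atherosclerosis, and 8 libraries of whole aorta from separate mice were analysed here. All mice lacked ApoE, the apolipoprotein whose loss raises plasma cholesterol, and all were fed a Western diet for 12 weeks. The NPRC-/-ApoE-/- mice were obtained by crossing ApoE-/- mice with NPRC-/- mice on a C57BL/6 background, and they were compared with littermate ApoE-/- mice. The NPRC-/- mice carried a CRISPR frameshift in exon 1 of Npr3 in all cells, so no single cell type was targeted. The ApoE-/- mice were bought as males at 8 weeks of age, and the age and sex of the sequenced mice at collection are not given in the sources used here.

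The titles name 5 ApoE-/- libraries, 1 to 5, and 3 NPRC-/-ApoE-/- libraries, 1 to 3. The genotype entered for each sample named the other genotype for 4 of the 8 libraries, namely those titled ApoE-/- 4 and 5 and those titled NPRC-/-ApoE-/- 1 and 2. Every comparison was therefore made by title and again by genotype entry, and libraries are called by their titles throughout. Total counts ranged from 62969165 to 86693276 per library. Npr3 messenger RNA did not separate the groups, with 0.62 to 1.69 FPKM in titled ApoE-/- and 1.13 to 1.39 FPKM in titled NPRC-/-ApoE-/- libraries, and a frameshift need not lower the RNA, so Npr3 did not settle which label holds.

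Endothelins are short vasoconstrictor peptides cut from longer precursors. Furin-like proteases release big endothelin, and the endothelin-converting enzymes ECE-1 and ECE-2, metalloproteases encoded by Ece1 and Ece2, cut it to the active peptide. In the vessel wall endothelin-1 comes mainly from endothelial cells. The ETA receptor, encoded by Ednra, lies on smooth muscle cells and fibroblasts, couples to Gq and to the RhoA pathway and drives contraction and growth. The ETB receptor, encoded by Ednrb, lies on endothelial cells, where it releases nitric oxide and clears endothelin-1 from the blood, and it is also found on some smooth muscle and on neural crest derivatives.

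In GRCm38, annotated by GENCODE M21, each of the ligand genes lies on the plus strand, Edn1 (ENSMUSG00000021367) at chr13:42301476-42307990, Edn2 (ENSMUSG00000028635) at chr4:120161206-120167360 and Edn3 (ENSMUSG00000027524) at chr2:174760619-174784042. The coding sequence of the mature peptide is shown for each ligand, because it shows how close the peptides of the ligands are. Each stretch of 63 bases lies within exon 2 of its gene, at chr13:42303649-42303711, chr4:120161951-120162013 and chr2:174761749-174761811, and codes for 21 residues. Capitals mark the bases that the ligands do not all share, and the converting enzymes cut the precursor right after the last codon.
Edn1: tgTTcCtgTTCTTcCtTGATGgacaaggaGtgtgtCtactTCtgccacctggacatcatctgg
Edn2: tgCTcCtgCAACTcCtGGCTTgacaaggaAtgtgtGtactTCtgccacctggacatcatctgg
Edn3: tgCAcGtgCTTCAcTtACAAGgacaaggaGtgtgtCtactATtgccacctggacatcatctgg
All ligands shared 45 of 63 bases, and the stretch that ends the sequence is the same in each. Edn1 and Edn2 shared 53 of 63 bases and 18 of 21 encoded residues. Edn1 and Edn3 shared 50 bases and 15 residues, and Edn2 and Edn3 shared 48 bases and 15 residues.

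Edn1 was the ligand of the aorta in every library. Its share of the summed FPKM of the ligands was between 96.3 and 99.4%. Edn1 stood at 5.06, 4.08, 3.51, 3.35 and 5.35 FPKM in ApoE-/- 1 to 5, against 3.08, 3.81 and 3.07 FPKM in NPRC-/-ApoE-/- 1 to 3. Libraries 1 and 3 titled NPRC-/-ApoE-/- lay below all ApoE-/- libraries, while library 2 lay inside their range, so the groups overlapped.

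The mean Edn1 level was 4.27 ± 0.901 FPKM in the titled ApoE-/- group (SD, n = 5) and 3.32 ± 0.424 FPKM in the titled NPRC-/-ApoE-/- group (SD, n = 3). The log2 fold change, given throughout as NPRC-/-ApoE-/- over ApoE-/-, was -0.33 (SE 0.17, 95% confidence interval -0.72 to 0.06). It did not pass the threshold of 0.05 in edgeR's quasi-likelihood test, a test of counts fitted over 20506 loci (unadjusted p = 0.0863, Benjamini-Hochberg adjusted p = 0.424). The two-sided exact permutation test on log2(FPKM + 0.1) gave p = 0.107 for Edn1, where the smallest p that this design allows is 0.0357. By genotype entry, both highest libraries (titled ApoE-/- 1 and 5) fell into different groups, and the log2 fold change of Edn1 was 0.02 (95% confidence interval -0.45 to 0.49).

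Edn2 and Edn3 were close to or at the limit of detection. Edn2, the ligand best known from the ovary and intestine, had counts of 0, 0, 6, 12 and 0 in ApoE-/- 1 to 5, against 4, 0 and 0 in NPRC-/-ApoE-/- 1 to 3. It was listed at 0 in 5 of 8 libraries, and a count of 0 allows up to 3 counts, between 0.0350 and 0.0476 CPM (counts scaled to library size) in these 5 libraries, for counting error only. Edn3, the ligand that acts with ETB on neural crest cells, had counts of 12, 25, 16, 23 and 14 and of 4, 16 and 21 in the same order. Edn3 was thus counted in every library, with 131 counts in all against 7220 for Edn1, and the level of 0.01 to 0.07 FPKM overlapped between the groups. No difference was detectable at this depth in two-sided exact permutation tests on log2(FPKM + 0.1), with p = 0.714 for Edn2 and p = 0.571 for Edn3 by title.

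**Figure D1:**
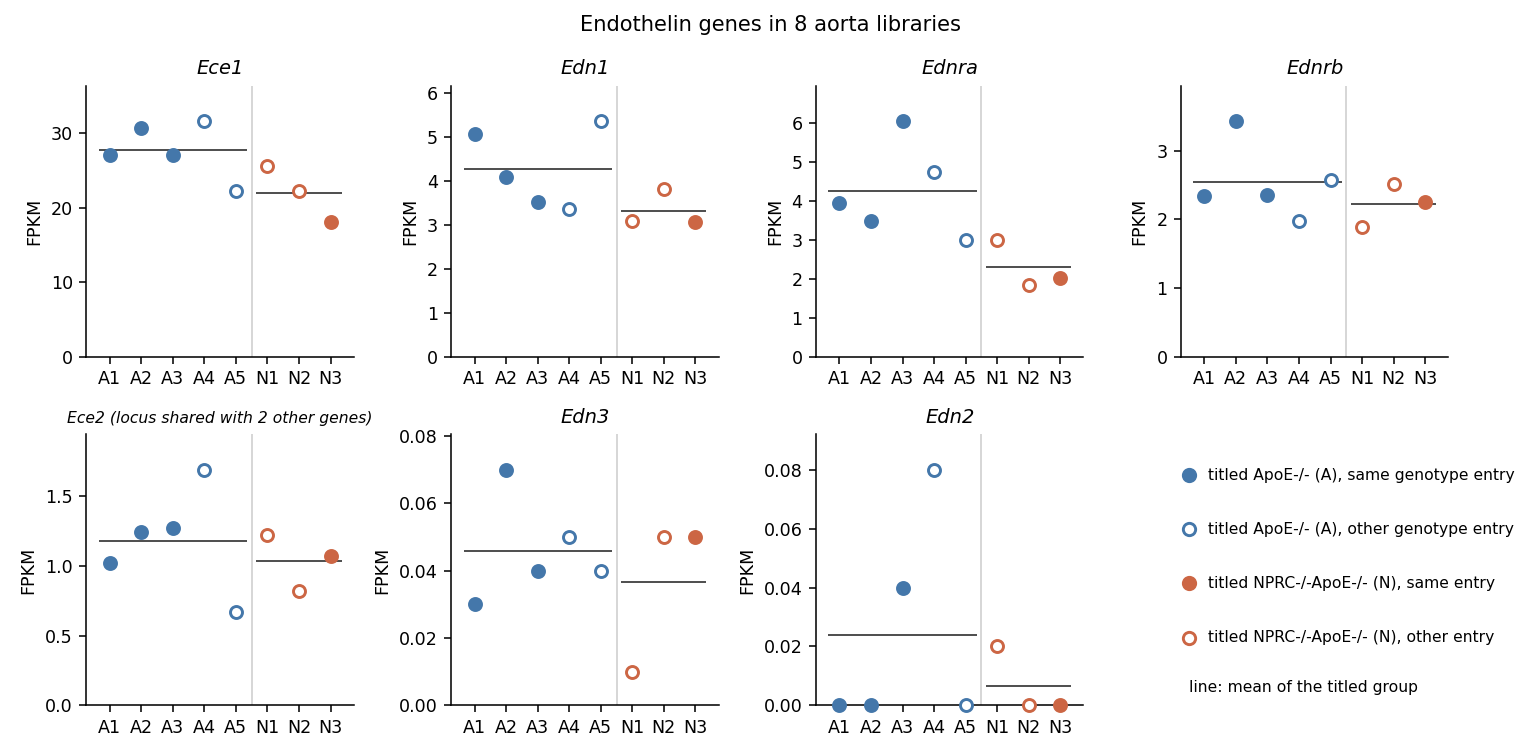
FPKM of the 7 endothelin genes (y axis, each panel with its own scale from 0) in each library (x axis, A for libraries titled ApoE-/- and N for those titled NPRC-/-ApoE-/-). Open circles mark the 4 libraries whose genotype entry names the other genotype and lines mark the mean of each titled group. Ednra was at 1.84 to 3.00 FPKM in the N libraries and 2.98 to 6.04 FPKM in the A libraries, while Ednrb was at 1.89 to 2.51 FPKM in the N libraries and 1.98 to 3.43 FPKM in the A libraries.

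Ednra (ENSMUSG00000031616, minus strand of chr8:77663031-77724464) had, among the 5 tested members, the largest difference by title and the widest spread between libraries. It was at 3.95, 3.48, 6.04, 4.74 and 2.98 FPKM in ApoE-/- 1 to 5, against 3.00, 1.84 and 2.03 FPKM in NPRC-/-ApoE-/- 1 to 3. Libraries 2 and 3 titled NPRC-/-ApoE-/- lay below every library titled ApoE-/-, and library 1 lay just above ApoE-/- 5, so the groups overlapped by that single pair. The coefficient of variation over the 8 libraries was 39.8%, against 17.9 to 27.6% for the other tested members.

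The mean Ednra level was 4.24 ± 1.20 FPKM by title in ApoE-/- (SD, n = 5) and 2.29 ± 0.622 FPKM in NPRC-/-ApoE-/- (SD, n = 3). The log2 fold change was -0.89 (SE 0.29, 95% confidence interval -1.55 to -0.23), a fold of 0.54. In edgeR's quasi-likelihood test the unadjusted p was 0.0142, under the threshold, and the adjusted p over all loci was 0.290, above it. The two-sided exact permutation test of Ednra gave p = 0.0714. Among all loci tested by title, 13.6% had an unadjusted p under 0.05 and 7.13% had one with a lower level in NPRC-/-ApoE-/-, and against this background Ednra was 1 of 5 tested members.

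By genotype entry the Ednra difference was small against its error. The group means were 3.66 ± 1.54 FPKM (SD, n = 5) and 3.25 ± 1.38 FPKM (SD, n = 3), and the log2 fold change was -0.15 (SE 0.41, 95% confidence interval -1.08 to 0.77) with an unadjusted p of 0.720 in edgeR's quasi-likelihood test. Leaving out the library titled NPRC-/-ApoE-/- 2 ended the call by title (log2 fold change -0.72, unadjusted p = 0.0594 in edgeR). Among the 3 ApoE-/- libraries and the 1 NPRC-/-ApoE-/- library on which both labels name the same genotype, Ednra was at 3.95, 3.48 and 6.04 FPKM against 2.03 FPKM, 0.452 times the mean, a difference with no replicate check.

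Ednra moved together with the markers of some cell types. The summed FPKM of 8 fibroblast markers (Col1a1 the most abundant) was 1029, 1277, 1911, 1824 and 753.5 in ApoE-/- 1 to 5, against 1082, 410.7 and 624.7 in NPRC-/-ApoE-/- 1 to 3. The libraries titled ApoE-/- 3 and 4 were the highest and those titled NPRC-/-ApoE-/- 2 and 3 the lowest for Ednra and for the fibroblast markers alike. The macrophage markers had the same highest and lowest libraries, at 683.4 and 664.8 FPKM and at 156.4 and 120.2 FPKM in that order. In edgeR's quasi-likelihood test by title 8 of 8 fibroblast markers were below 0 in log2 fold change and 2 had an unadjusted p under 0.05, with a median of -0.85. Leaving out single libraries moved this number between 1 (without NPRC-/-ApoE-/- 2 or without 3) and 6 (without ApoE-/- 5, and 5 without NPRC-/-ApoE-/- 1). Among all loci tested by title, 50.9% were below 0 and 7.13% were lower at an unadjusted p under 0.05.

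The 10 smooth muscle markers went the other way from Ednra, although smooth muscle is a main site of the ETA receptor. Their summed FPKM, led by Acta2, was 1353 to 1806 in titled ApoE-/- libraries, against 1753 to 2995 in titled NPRC-/-ApoE-/- libraries, and 9 of 10 rose at an unadjusted p under 0.05 with a median log2 fold change of 0.64. Without the library NPRC-/-ApoE-/- 3 it was 2 of 10, without NPRC-/-ApoE-/- 2 it was 5 and without ApoE-/- 4 it was 6, with a median between 0.47 and 0.79 whichever library was left out. Macrophage markers, led by C1qb, summed to 231.2 to 683.4 FPKM and 120.2 to 314.0 FPKM, with 5 of 8 lower at that threshold (median -1.03) and 3 of 8 without NPRC-/-ApoE-/- 2 or without 3. Among all loci by title, 7.13% were lower and 6.51% higher at that threshold. The medians by genotype entry were -0.10 for fibroblast, 0.17 for smooth muscle and -0.17 for macrophage markers. In whole aorta, fewer cells of a type and less RNA per cell cannot be told apart, and the part of these markers in the Ednra difference was not tested.

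**Figure D2:**
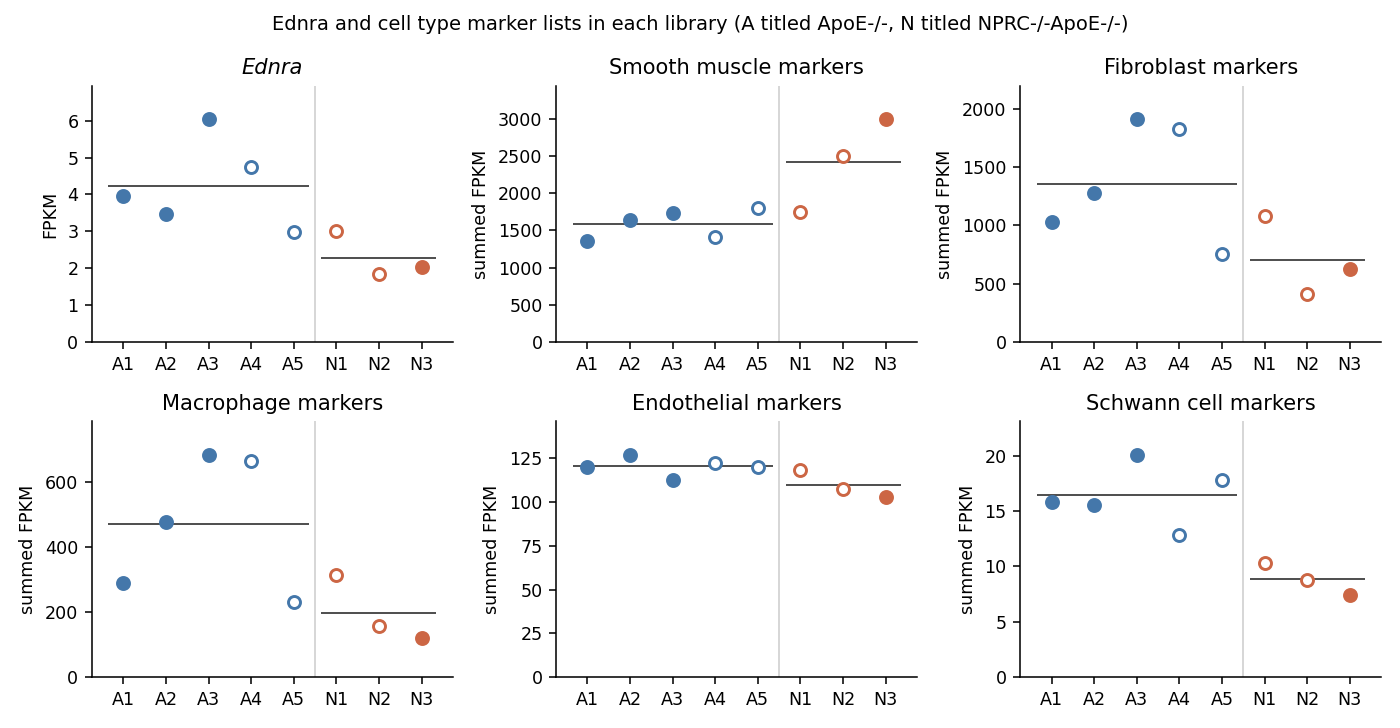
Level of Ednra (FPKM) and summed FPKM of 5 cell type marker lists (y axes from 0) in each library (x axis, A titled ApoE-/-, N titled NPRC-/-ApoE-/-). Open circles are libraries whose genotype entry names the other genotype and lines are means of the titled groups. Ednra, the fibroblast markers and the macrophage markers were highest in A3 and A4 and lowest in N2 and N3, and the smooth muscle markers were highest in N2 and N3.

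Ednrb (ENSMUSG00000022122, minus strand of chr14:103814625-103844402) did not differ beyond the spread of the libraries. It was at 2.34, 3.43, 2.36, 1.98 and 2.58 FPKM in ApoE-/- 1 to 5, against 1.89, 2.51 and 2.25 FPKM in NPRC-/-ApoE-/- 1 to 3. The library titled ApoE-/- 2 stood highest, and 2 of the 3 NPRC-/-ApoE-/- values lay inside the ApoE-/- range. The log2 fold change of Ednrb by title was -0.17 (SE 0.19, 95% confidence interval -0.59 to 0.26), with an unadjusted p of 0.402 and an adjusted p of 0.720 in edgeR's quasi-likelihood test. It was -0.05 without the library titled ApoE-/- 2, which also held the highest levels of mesothelial and lymphocyte markers, and likewise -0.05 without that titled NPRC-/-ApoE-/- 1, the lowest for Ednrb. By genotype entry it was -0.12 (95% confidence interval -0.57 to 0.33).

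Ednrb is known from endothelium, Schwann cells and melanocytes, and these lists differed in their behaviour. The 10 endothelial markers, led by Vwf, summed to 112.8 to 127.1 FPKM in titled ApoE-/- libraries, against 103.1 to 118.1 FPKM in titled NPRC-/-ApoE-/- libraries, and 0 of 10 passed the threshold (0 to 2 when single libraries were left out, with 2 without NPRC-/-ApoE-/- 1). The 8 Schwann cell markers, led by S100b, summed to 12.9 to 20.1 FPKM and 7.46 to 10.3 FPKM without overlap, and 6 of 7 tested were lower by title (4 of 7 without NPRC-/-ApoE-/- 2 or without 3). Among all loci by title, 7.13% were lower at an unadjusted p under 0.05, and 7.25% of single loci were free of overlap. Grouped by genotype entry, the Schwann cell sums overlapped, at 8.80 to 20.1 FPKM in ApoE-/- and 7.46 to 17.8 FPKM in NPRC-/-ApoE-/-. Their median log2 fold change was then 0.02. Of 6 melanocyte markers, 0 could be tested, the sums were 0.32 to 0.67 FPKM, and 2 were listed at 0 in every library.

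The balance of the receptors differed between libraries mainly through Ednra. The ratio of Ednra to Ednrb FPKM, which does not depend on library size, was 1.69, 1.01, 2.56, 2.39 and 1.16 in ApoE-/- 1 to 5, against 1.59, 0.733 and 0.902 in NPRC-/-ApoE-/- 1 to 3. Ednrb exceeded Ednra only in the libraries titled NPRC-/-ApoE-/- 2 and 3. The mean log2 ratio was 0.72 ± 0.60 in ApoE-/- by title (SD, n = 5) and 0.02 ± 0.58 in NPRC-/-ApoE-/- (SD, n = 3), a difference of -0.70 that is given as a description. By genotype entry this difference was -0.03.

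Ece1 (ENSMUSG00000057530, plus strand of chr4:137862237-137965229) was the most abundant member in every library. It was at 27.07, 30.74, 27.02, 31.61 and 22.18 FPKM in ApoE-/- 1 to 5, against 25.63, 22.23 and 18.10 FPKM in NPRC-/-ApoE-/- 1 to 3. Only the library titled NPRC-/-ApoE-/- 3 lay below all ApoE-/- libraries. RefSeq lists 4 start sites for Ece1, whose transcripts the table did not separate.

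The mean Ece1 level was 27.7 ± 3.74 FPKM by title in ApoE-/- (SD, n = 5) and 22.0 ± 3.77 FPKM in NPRC-/-ApoE-/- (SD, n = 3). The log2 fold change was -0.32 (SE 0.17, 95% confidence interval -0.71 to 0.07), which did not pass edgeR's quasi-likelihood test (unadjusted p = 0.0931, adjusted p = 0.432). Leaving out the library titled ApoE-/- 5, the lowest of its group, brought the unadjusted p to 0.0249 at a log2 fold change of -0.41. By genotype entry the log2 fold change of Ece1 was -0.11 (95% confidence interval -0.58 to 0.36), and without the library titled ApoE-/- 4, the highest of all, it was -0.40 with an unadjusted p of 0.0452 in edgeR.

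Both minus-strand loci that carried the name Ece1 lay inside its introns. The locus at chr4:137868351-137879656 (11306 bases) lay within intron 1 and that at chr4:137931974-137933655 (1682 bases) within intron 5 of the transcript with 20 exons, and neither overlapped an annotated Ece1 exon. Together these loci held 10.0, 9.48, 8.22, 9.08 and 10.6% of the counts named Ece1 in ApoE-/- 1 to 5, against 7.84, 15.3 and 21.9% in NPRC-/-ApoE-/- 1 to 3. Libraries 2 and 3 titled NPRC-/-ApoE-/- lay above all others, and library 1 lay below all others.

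The intron 1 locus had a log2 fold change of 0.48 by title (SE 0.26, unadjusted p = 0.101 in edgeR) and 0.30 by genotype entry (SE 0.30, unadjusted p = 0.332). The intron 5 locus had -0.12 by title (SE 0.32, unadjusted p = 0.719 in edgeR) and 0.61 by genotype entry (SE 0.25, unadjusted p = 0.0351, adjusted p = 1.0). Whether the counting used strand is not given in the sources used here, so these counts may hold reads from Ece1 itself. With all loci named Ece1 summed, the log2 fold change was -0.24 by title (SE 0.16, unadjusted p = 0.166 in edgeR). By genotype entry this sum had -0.06 (SE 0.18, unadjusted p = 0.755 in edgeR).

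**Figure D3:**
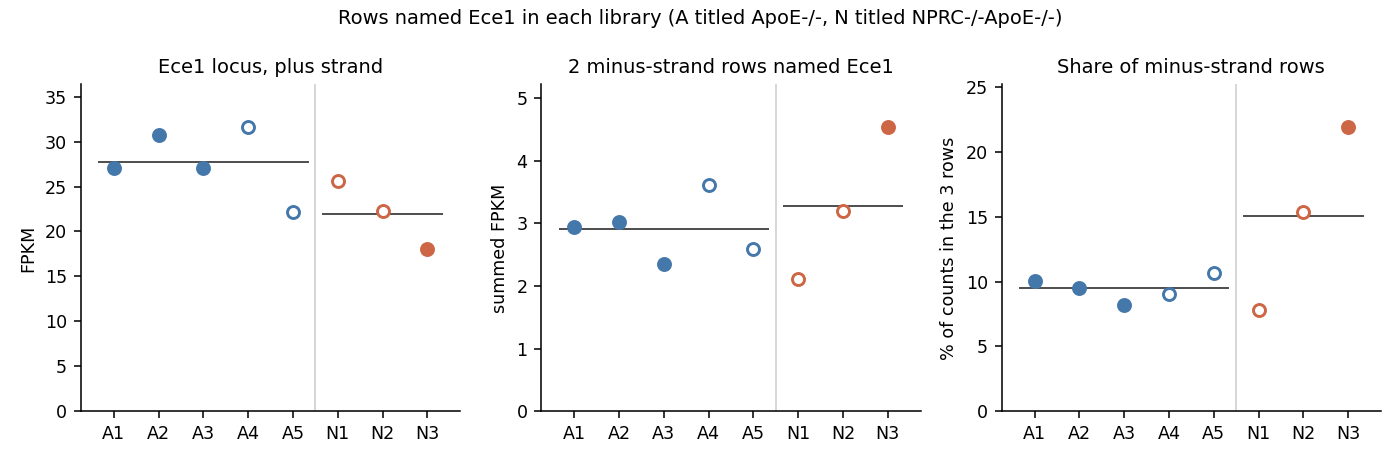
Level of the Ece1 locus on the plus strand (FPKM), summed FPKM of the minus-strand loci named Ece1, and the share of these loci in all counts named Ece1 (y axes from 0) in each library (x axis, A titled ApoE-/-, N titled NPRC-/-ApoE-/-). Open circles are libraries whose genotype entry names the other genotype and lines are means of the titled groups. The share was 7.84 to 10.6% in 6 libraries and 15.3 and 21.9% in N2 and N3.

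Ece2 (ENSMUSG00000022842, plus strand of chr16:20629828-20646485) could not be read on its own. Its locus, chr16:20611593-20646476, also carried the names Eef1akmt4, a methyltransferase gene, and Gm49333. Gm49333 overlaps Ece2, whereas Eef1akmt4 (chr16:20611593-20619011) ends before Ece2 starts. This locus was at 1.02, 1.24, 1.27, 1.69 and 0.67 FPKM in ApoE-/- 1 to 5, against 1.22, 0.82 and 1.07 FPKM in NPRC-/-ApoE-/- 1 to 3. All 3 NPRC-/-ApoE-/- values lay inside the ApoE-/- range. Its log2 fold change was -0.17 by title (SE 0.31, 95% confidence interval -0.87 to 0.52) and 0.09 by genotype entry (95% confidence interval -0.62 to 0.80), with unadjusted p of 0.584 and 0.777 in edgeR's quasi-likelihood test.

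By mean FPKM over the 8 libraries the members ranked Ece1 (25.6), Edn1 (3.91), Ednra (3.51), Ednrb (2.42), the Ece2 locus (1.13), Edn3 (0.0425) and Edn2 (0.0175). Ece1 stood above Edn1, Ednrb above the Ece2 locus and that locus above Edn3 in all 8 libraries. The neighbours Edn1 and Ednra overlapped, with Edn1 higher in 6 of 8 libraries, and so did Ednra and Ednrb, with Ednra higher in 6 of 8, and Edn3 and Edn2, with Edn3 higher in 5 of 8.

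All 5 tested members had a log2 fold change below 0 by title, where 50.9% of all loci did, and their median was -0.32 against -0.01 over all loci. For Ece2 this rested on single libraries, since it was at 0.016 without ApoE-/- 4 and at 0.0014 without NPRC-/-ApoE-/- 2. Of the 5 members, 1 had an unadjusted p under 0.05 and 0 had an adjusted p under 0.05 in edgeR. The number at the unadjusted threshold was 0 without NPRC-/-ApoE-/- 2, where Ednra no longer passed, and 2 without ApoE-/- 5, where Ece1 passed too. The study's criterion adds a fold change above 2 or below 0.5 to the unadjusted p, and 0 members met it, where 3.47% of all loci did. No member was free of overlap between the titled groups, where 7.25% of all loci were. By genotype entry 0 of 5 members had an unadjusted p under 0.05, where 1.31% of all loci did, and 3 of 5 were below 0, where 51.0% of all loci were. No member was free of overlap by genotype entry either, where 0.970% of all loci were.

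**Figure D4:**
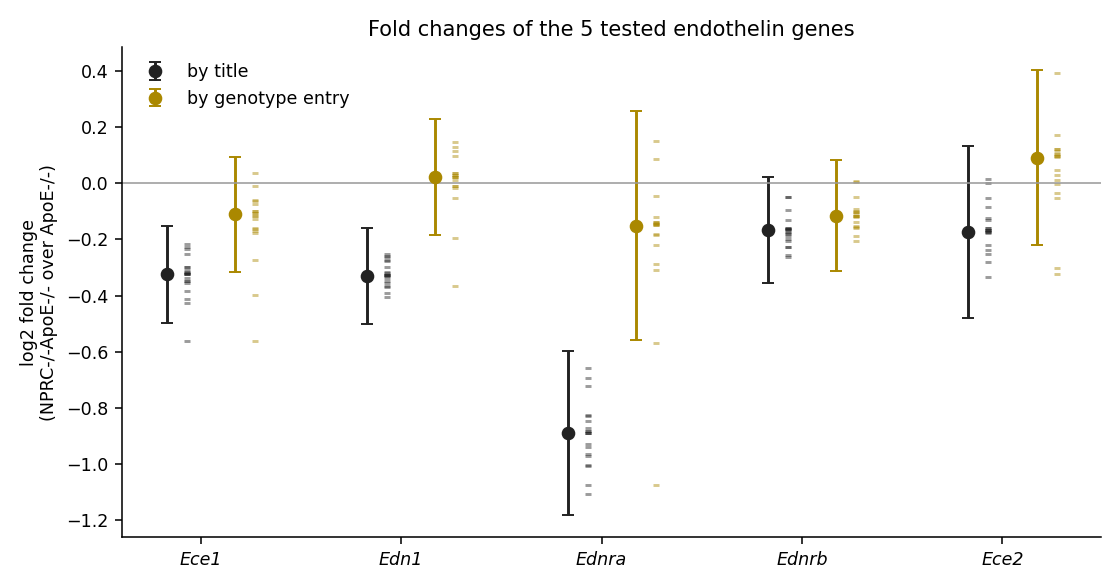
Log2 fold change of the 5 tested members (y axis, NPRC-/-ApoE-/- over ApoE-/-) by title and by genotype entry. Points are edgeR estimates with bars of 1 SE, and ticks beside them are the values under the alternative tests, filters, scalings and left-out libraries. Ednra stood at -0.89 by title and at -0.15 by genotype entry, and all 5 members were below 0 by title.

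Over all 20506 loci by title, 0 passed an adjusted p under 0.05 in edgeR while 2797 passed the unadjusted threshold, which became 1332 without NPRC-/-ApoE-/- 2, 1373 without NPRC-/-ApoE-/- 3 and 4431 without NPRC-/-ApoE-/- 1. DESeq2 called 650 loci at the adjusted threshold by title, limma voom with quality weights 130 and limma on log2(FPKM + 1) 2, and by genotype entry the counts were 0 in edgeR, 9 in DESeq2, 0 in voom and 0 in limma. The adjusted p of Ednra by title was above 0.05 under all 21 alternatives, with 0.0667 the smallest. Among the cell type lists not yet given, adipocyte and skeletal and cardiac muscle markers had 0 of 5 tested past the unadjusted threshold each by title. Of 6 lymphocyte markers 1 could be tested and was lower by title, and 0 of 5 mesothelial markers could be tested. Of 6 sympathetic neuron markers 2 could be tested and were lower by title. The sum of the 6 was 0.14 to 0.27 FPKM in the titled NPRC-/-ApoE-/- libraries. The 2 thus passed the filter only through titled ApoE-/- libraries, which fixed their direction. By genotype entry 0 markers of any of the 11 lists passed.

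The pathway around the members was read from 5 lists of 68 genes, of which 62 were tested. By title 20 of the 62 (32.3%) had an unadjusted p under 0.05 in edgeR's quasi-likelihood test, 12 lower and 8 higher in NPRC-/-ApoE-/-, against 13.6% of all loci (7.13% lower and 6.51% higher), and 0 had an adjusted p under 0.05. The lists were chosen with earlier results of these data known, so the gap between these shares is a description and no test. By genotype entry 0 of 62 passed. For 3 pathway genes, Prkca, Prkce and Grk5, the row with the most counts lay on the strand opposite to the annotated gene, and with the largest row on the annotated strand 19 of 62 passed by title, 12 lower and 7 higher. The number by title was 18 with all loci of a symbol summed, 9 without NPRC-/-ApoE-/- 2 and 12 without NPRC-/-ApoE-/- 3. Of the 20 genes, 6 kept an unadjusted p under 0.05 whichever library was left out, namely Cma1, Mcpt4, Plcb2, Mylk, Arrb2 and Jun. Cma1, Mcpt4, Plcb2 and Prkcb fell to 0.75, 0.61, 0.74 and 0.80 FPKM in titled NPRC-/-ApoE-/- libraries. They thus passed the filter on low values only with the titled ApoE-/- libraries, which favoured a call in the lower direction. Higher and lower refer to the unadjusted threshold by title for each pathway gene. Where a pathway gene is given as without overlap by title, 7.25% of all loci were so.

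Among enzymes that release or degrade endothelins, 3 of 9 tested genes were lower and 0 higher, with a median log2 fold change of -0.48. The mast cell proteases Cma1 and Mcpt4, of which the chymase Mcpt4 can cut big endothelin-1 to a longer active form, were the lowest of the list. Cma1 was at 1.96 to 6.65 FPKM in ApoE-/- by title and at 0.75 to 1.03 FPKM in NPRC-/-ApoE-/- without overlap (log2 fold change -1.90, SE 0.40, adjusted p = 0.222 in edgeR). Mcpt4 was at 1.51 to 5.84 FPKM and 0.61 to 1.06 FPKM, also without overlap (log2 fold change -1.80, SE 0.49). Mmp2, a gelatinase made by fibroblasts that also cuts big endothelin-1, was at 29.48 to 67.55 FPKM and 15.37 to 34.40 FPKM (log2 fold change -1.04, SE 0.36). By genotype entry these values were -0.06 for Cma1, 0.02 for Mcpt4 and -0.31 for Mmp2. Furin, which makes big endothelin, was at 9.89 to 17.44 FPKM and 7.19 to 13.99 FPKM and did not pass (log2 fold change -0.48, SE 0.29).

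Among the G proteins, phospholipases, IP3 receptors and protein kinases C through which the receptors signal, 2 of 17 genes were lower and 3 higher, and the median was 0.03. Plcb2, a phospholipase C of blood cells, had a log2 fold change of -1.03 (SE 0.29) and Prkcb, a kinase abundant in leukocytes, of -0.89 (SE 0.39). Itpr1, the IP3 receptor that releases calcium in smooth muscle, had 0.47 (SE 0.16) and Plcb4 had 0.69 (SE 0.24) at a locus shared with Gm14209. The values by genotype entry were -0.10 for Plcb2, -0.04 for Prkcb, 0.09 for Itpr1 and 0.23 for Plcb4. Of the 8 fits by title with a library left out, Prkcb passed in only 3, and Itpr1 and Plcb4 in 6 each. The Prkcb row held 48.4% of the counts with that name. The row with the most counts for Prkce, a kinase gene of the plus strand, lay on the minus strand (log2 fold change 0.63, SE 0.22), and the largest row on its own strand had 0.17 (SE 0.19) and did not pass, which leaves 2 higher in this list. The Gq genes Gnaq and Gna11 had -0.06 and 0.11 and did not pass.

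In the RhoA arm, which keeps myosin phosphorylated, 0 of 14 genes were lower and 3 higher, all of them parts of the contractile machinery. Mylk, the myosin light chain kinase, was at 19.28 to 34.25 FPKM in ApoE-/- by title and at 29.98 to 64.01 FPKM in NPRC-/-ApoE-/- (log2 fold change 0.95, SE 0.29). Ppp1r14a, the inhibitor of myosin phosphatase CPI-17, had a log2 fold change of 1.07 (SE 0.38) and Myl9, the regulatory light chain of smooth muscle myosin, of 0.73 (SE 0.31). Without the library NPRC-/-ApoE-/- 3, Ppp1r14a had 0.48 and Myl9 had 0.44, and neither passed. Myl9 passed in only 3 of the 8 fits with a library left out, whereas Ppp1r14a passed in 7. By genotype entry the values were 0.12 for Mylk, 0.50 for Ppp1r14a and 0.34 for Myl9. The smooth muscle markers rose by title beside these genes, and their part was not tested. Rhoa itself had -0.27 (SE 0.15) and its kinases Rock1 and Rock2 had 0.03 and 0.13, none of which passed.

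Among genes that switch receptors off, 2 of 10 tested were lower and 2 higher. Arrb2, a beta-arrestin that uncouples receptors, was at 4.52 to 7.28 FPKM in ApoE-/- by title and 2.50 to 4.39 FPKM in NPRC-/-ApoE-/- without overlap (log2 fold change -0.97, SE 0.25). Rgs2, a regulator that shortens Gq signals, was at 5.25 to 12.89 FPKM and 3.19 to 5.11 FPKM without overlap (log2 fold change -1.07, SE 0.37). Rgs4 had 0.54 (SE 0.19) and Rgs3 had 0.31 (SE 0.12), and the receptor kinases Grk2, Grk3, Grk5 and Grk6 did not pass. Of the 8 fits by title with a library left out, Rgs3 passed in 5, and Rgs2 and Rgs4 in 7 each. The values by genotype entry were -0.17 for Arrb2, -0.35 for Rgs2, 0.003 for Rgs4 and -0.15 for Rgs3, and the groups of each overlapped.

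Among transcription factors linked to Edn1, 5 of 12 tested were lower and 0 higher, and 11 of 12 were below 0. The list was not sorted by whether a factor raises or lowers Edn1, so these counts give no direction for Edn1. Jun, a part of the AP-1 factor that binds the Edn1 promoter, was at 28.52 to 44.05 FPKM in ApoE-/- by title and at 20.24 to 21.01 FPKM in NPRC-/-ApoE-/- without overlap (log2 fold change -0.70, SE 0.17). Fos, its partner in AP-1, was at 12.73 to 104.91 FPKM and 11.90 to 13.08 FPKM (log2 fold change -2.03, SE 0.72). Klf4 had -0.82 (SE 0.29), and Hif1a, the hypoxia factor, had -0.55 (SE 0.22) at a locus that also carried the names Gm49321 and Snapc1. Klf2, the flow-induced endothelial factor, had -0.63 (SE 0.25). By genotype entry these values were -0.06 for Jun, -0.98 for Fos, -0.09 for Klf4, -0.03 for Hif1a and -0.26 for Klf2. Of the 8 fits by title with a library left out, Klf4 passed in 7, Fos in 5, and Hif1a and Klf2 in only 4 each.

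**Figure D5:**
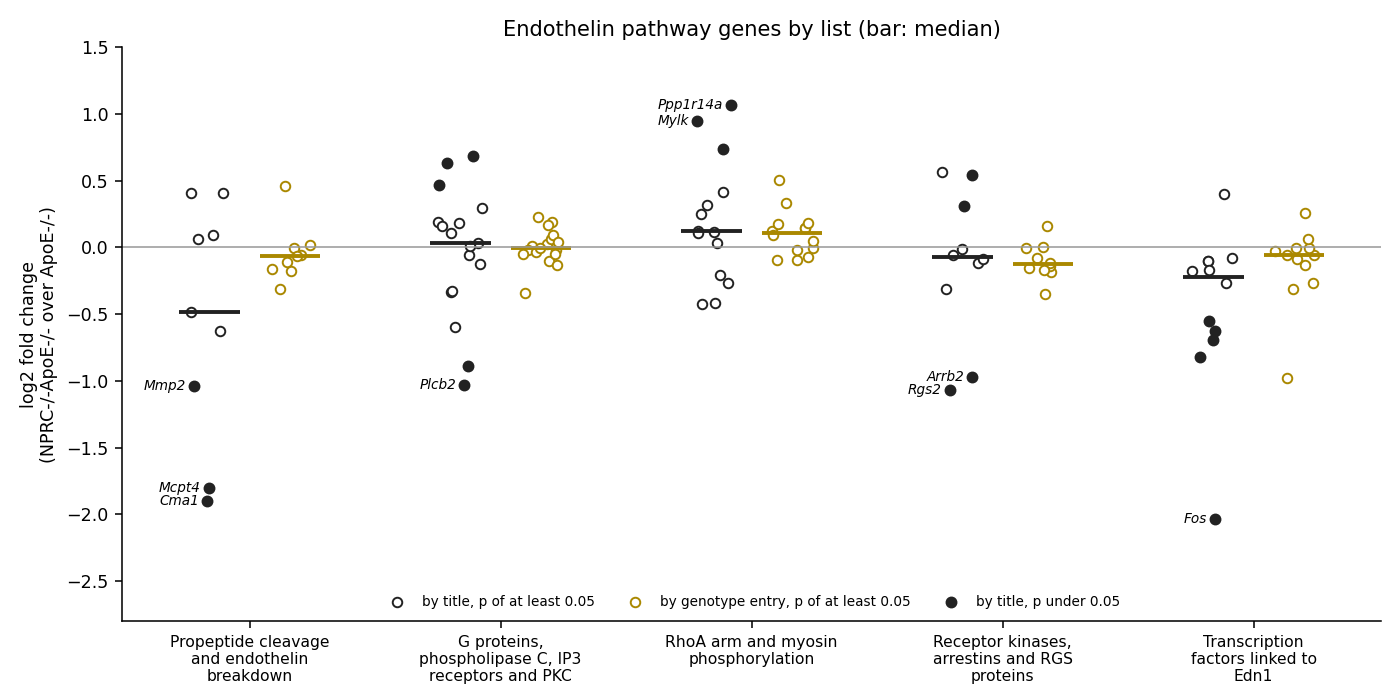
Log2 fold change (y axis, NPRC-/-ApoE-/- over ApoE-/-) of the 62 tested pathway genes in 5 lists (x axis), by title in black and by genotype entry in ochre, with bars at the medians. Filled points have an unadjusted p under 0.05 in edgeR's quasi-likelihood test and genes past a log2 fold change of 0.9 in size are named. By title 20 points are filled and by genotype entry 0 are.

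The members followed different genes over the 8 libraries. The correlations are of log2 CPM over 8 libraries with loci that carry a single symbol, chosen as the highest, so they are a description. Ednra was most like Csmd1, of which 2 loci had Pearson's r of 0.995 each (Spearman's rho 1.0), and Gm2a, the lysosomal GM2 activator (r = 0.989, rho = 0.976). Ece1 was most like Slc8b1, Dnase1l1 and Zmynd15 (r = 0.992, 0.989 and 0.987, rho = 0.976 for each).

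Edn1 was most like Zrsr2 (r = 0.948, rho = 0.810), Fam135a (r = 0.939, rho = 0.881) and Psd3 (r = 0.934, rho = 0.905). Ednrb was most like Gsn, the actin-severing gelsolin (r = 0.950, rho = 0.952), the lymphoid chemokine Ccl21b (r = 0.941, rho = 0.929) and the procollagen enhancer Pcolce2 (r = 0.933, rho = 0.810). The Ece2 locus was most like Il16, Selenos and Gnptg (r = 0.982, 0.979 and 0.978). Between members, Ednra and Ece1 had r = 0.796 and rho = 0.810, whereas Ednra and Ednrb had r = -0.042 and rho = -0.024, and Edn1 and Ednra had r = 0.086 and rho = 0.00.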

How the data were processed

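Whole-aorta poly(A) RNA was sequenced as stranded paired-end libraries. The authors trimmed the reads (the submitters' processing notes name cutadapt 1.9, FastQC and the build GRCm38), aligned these with HISAT2 and built loci with StringTie. The deposited counts are whole numbers of reads per locus without normalization, and the deposited FPKM values were scaled by the authors to transcript length and mapped fragments. How counts were made from the assembly, and whether strand was used, is not given in the sources used here. The table had 0 value columns without a sample, and 1686 loci without a gene name (0.607% of counts) were kept.

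The 20506 loci that reached 1 FPKM in 3 or more libraries were tested with edgeR 4.0.16 in R 4.3.3 (TMM scaling, quasi-likelihood test, Benjamini-Hochberg adjustment over all loci), the tool the study names. DESeq2 1.42.0 and limma 3.58.1 were alternatives. Permutation tests (scipy 1.17.1) used log2(FPKM + 0.1), with log2(FPKM + 1) as the alternative, and all were two-sided and exact. The biological coefficient of variation was 0.327. Groups came from the titles and, separately, from the genotype entries. The number of libraries limits the precision, and the 95% confidence intervals come from the fit between libraries, whereas the floors on counts cover counting error only. The libraries come from separate mice, and the methods name 5 mice per group for RNA-seq, while 3 libraries titled NPRC-/-ApoE-/- were analysed here.

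The members, the 5 pathway lists and the 11 cell type marker lists were chosen with earlier results of these data known. Genes named are the 7 members, up to 4 genes per pathway list with an unadjusted p under 0.05 by title or by genotype entry (smallest p first), the most abundant gene of each marker list described, the 3 loci most like each tested member and Npr3. Gnaq, Gna11, Furin, Rhoa, Rock1, Rock2, Prkcb, Klf2 and the receptor kinases were named in addition, after their values were seen. Ligand sequences were read from the GENCODE M21 transcripts of GRCm38. Alternatives covered the label, the libraries with the same genotype in both labels, the test, pseudocount, filter, scaling, replicate block, each library left out, and all loci of a symbol summed. The left-out libraries for the marker lists, and the row on the annotated strand for the pathway lists, were added after seeing the data.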

Additional observations from a re-analysis of the deposited data

Results flagged for a closer look

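The summed FPKM of the cell type marker lists, the levels of the members, the receptor ratio and the minus-strand loci of Ece1 were compared within the groups of 5 ApoE-/- libraries by title and by genotype entry, 40 groups of values in all, and in 5 a library lay apart from its group by Dixon's criterion, where chance gives about 2. No value of an endothelin gene was among these. The sympathetic neuron markers summed to 17.08 FPKM in the library titled ApoE-/- 3 against 1.78 to 5.59 in the other ApoE-/- libraries by title. The library titled ApoE-/- 2 held 5.57 FPKM of mesothelial markers, against 0.26 to 0.51 in the others of its titled group and 0.15 to 0.34 in the others of its group by genotype entry, and 13.71 FPKM of lymphocyte markers against 3.61 to 5.16 by title. The skeletal and cardiac muscle markers summed to 1.28 FPKM in the library titled ApoE-/- 4 against 8.71 to 11.19 in the others. Ednra and Ednrb had their highest levels in the libraries titled ApoE-/- 3 and 2, and their part in these differences was not tested.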

How the results depend on the processing

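Grouping by genotype entry instead of title gave log2 fold changes of Edn1 0.022, Ednra -0.15 and Ece2 0.092, with 0 members, 0 pathway genes and 269 loci at an unadjusted p under 0.05, against 1, 20 and 2797 by title, and title in place of genotype entry gave Edn1 -0.33, Ednra -0.89 and Ece2 -0.17. In edgeR by title, the 4 libraries with 1 genotype in both labels gave Ednra -1.07 (no longer past the threshold), 0 members and 12 pathway genes, the lone NPRC-/-ApoE-/- library being assumed to vary like the others. Voom with quality weights gave Ece1 -0.38 (past the threshold), 2 members, 31 pathway genes and 5419 loci. Without a filter 4666 loci passed, and with a mean of at least 5 FPKM 0 members (only Ece1 was tested) and 737 loci. Leaving out 1 library at a time by title gave Edn1 -0.40 to -0.26, Ednra -1.11 to -0.69 (past the threshold in 7 of 8, lost without NPRC-/-ApoE-/- 2), Ednrb -0.23 to -0.05, Ece1 -0.43 to -0.22, Ece2 -0.33 to 0.016, 0 to 2 members, 9 to 24 pathway genes (9 without NPRC-/-ApoE-/- 2, 12 without 3), 1332 to 4431 loci (1332 without NPRC-/-ApoE-/- 2, 1373 without 3, 4431 without 1) and a receptor log2 ratio difference of -1.02 to -0.46.

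By genotype entry, the 4 libraries gave Edn1 -0.37, Ece2 -0.052, 12 pathway genes and 2743 loci. Limma gave Edn1 -0.011 and Ece2 -0.0026 on log2(FPKM + 1), and Edn1 -0.018 and Ece2 -0.034 on log2(FPKM + 0.1). Voom gave Ednrb 0.0029, Ece2 -0.30, 1 pathway gene and 543 loci, library totals alone gave Edn1 -0.0088, and no filter, filterByExpr and a mean of at least 5 FPKM gave 992, 568 and 25 loci. Leaving out 1 library gave Edn1 -0.20 to 0.15, Ednra -0.57 to 0.15, Ednrb -0.20 to 0.0086, Ece1 -0.40 to 0.036, Ece2 -0.32 to 0.39, 0 to 1 members, 0 to 2 pathway genes, 184 to 750 loci and a receptor difference of -0.44 to 0.26.

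Equal replicate numbers did not pair the libraries: same-numbered libraries had correlations of deviations of -0.27 to -0.01, and 0 of 3 correlated best with their own number. With the number as a replicate block in 6 libraries, Ednra had -0.94 (past the threshold), and 11 pathway genes and 1813 loci passed, and without the block the same 6 gave Ednra -0.97. Ednra by title kept an unadjusted p under 0.05 in 18 of 21 alternatives, which reuse the same libraries and are not independent. The two-sided exact permutation test was not among these and gave p = 0.0714 for Ednra with either pseudocount. The cause of these changes was not tested, apart from the fewer libraries or loci some alternatives hold.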
